A study of Homo sapiens with 2 samples.

Results

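The m6A readers of the YTH family and a set of RNA stability cofactors were examined as mRNA targets of IGF2BP3. The members were taken by name as YTHDF1, YTHDF2, YTHDF3, YTHDC1, YTHDC2, ELAVL1, MATR3, PABPC1 and PABPC4, which are 9 of the 20046 protein-coding genes in GENCODE release 44. Every peak that overlapped the span of a member gene was kept, which gave 27 of 21142 peaks in replicate 1 and 26 of 20799 peaks in replicate 2. The peaks were then taken by gene span alone, whatever their values, while the gene names themselves were picked with earlier results of these data known.

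The study mapped RNA contacts of IGF2BP3 by LACE-seq in OE-19, an established human cell line derived from an adenocarcinoma of the esophagogastric junction. Both libraries belonged to a single group, for which the labels name no genotype or treatment, and the cells were crosslinked with ultraviolet light before IGF2BP3 was pulled down. LACE-seq copies the RNA held by the protein into cDNA, and the copying enzyme tends to stop at the crosslinked base. The labels do not say whether the 2 replicates were separate cultures, so the spread between them may be technical, and no control library was analysed here. All 6 epithelial marker genes (EPCAM, KRT8, KRT18, KRT19, CDH1 and CLDN4) and ERBB2 had peaks in both lists, while none of 8 markers of other cell types did. Among those 8, PTPRC had 1 peak in replicate 1 and COL1A1 had 1 in replicate 2. Over all protein-coding genes, 34.7% had a peak in both lists. A peak shows bound RNA, not its level, so these counts do not establish the identity of the line.

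N6-methyladenosine (m6A) is a methyl mark that cells place on adenosines of mRNA, mostly within a short GGAC-like context and often near stop codons. YTH domain proteins bind the mark directly and steer the marked mRNA to decay, translation, splicing or export, whereas IGF2BP proteins are readers known for stabilising the mRNAs they bind. ELAVL1 (also called HuR), MATR3 and the cytoplasmic poly(A)-binding protein PABPC1 are RNA-binding proteins named as cofactors of IGF2BP proteins in mRNA stabilisation, and PABPC4 is a paralog of PABPC1. A peak over one of these genes alone is therefore read as IGF2BP3 held on the mRNA of another reader or cofactor, not as contact between the proteins. Some peaks also cover other genes, as given below, and cannot be assigned to the member mRNA.

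The sites that recur in the description are printed here. Each lies inside a stretch of RNA that both replicates called. Each site marks the GGAC closest to the summits or, where the shared stretch has no GGAC, the closest DRACH match. Not every shared pair has a printed site, and none is printed for YTHDF3, MATR3 or PABPC1. DRACH is the wider m6A consensus, read as A, G or T, then A or G, then AC, then A, C or T. Each sequence is 30 nt of hg38 on the strand of its gene, written 5′ to 3′, and the capitals mark the motif match.
YTHDF1 3′ UTR, chr20:63195720-63195749, minus strand: tttgtggaatgagGGACcgttgagctcact
YTHDF1 CDS, chr20:63203117-63203146, minus strand: taaagcataacatGGACattggcacctggg
YTHDF2 CDS, chr1:28742525-28742554, plus strand: cttaacttcttatGGACagctgagcaacgg
YTHDC1 CDS, chr4:68337372-68337401, minus strand: ctaaggaagaagtGAACTctgaagaatatg
ELAVL1 3′ UTR, chr19:7962835-7962864, minus strand: gccctccagagaaGGACacaaacgtgtttc
ELAVL1 CDS, chr19:7967743-7967772, minus strand: cgtttatccggttTGACAaacggtcggagg
PABPC4 5′ UTR, chr1:39576197-39576226, minus strand: gagcttcgcaccaGGACcgcggagaagtgc
The match in the YTHDF1 3′ UTR lay 3 and 11 nt from the summits of replicates 1 and 2, closer to both summits than the other GGAC matches printed here. A match describes the letters only. Methylation was not measured in these files.

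IGF2BP3 peaks lay on 8 of the 9 mRNAs in replicate 1 and on 8 of 9 in replicate 2. Over all protein-coding genes, 41% had a peak in replicate 1, 42.2% in replicate 2 and 34.7% in both. The same 8 members carried at least 1 pair of peaks overlapping between the lists, against 30.5% of all protein-coding genes. Long mRNAs offer more room for peaks, and among the 13129 protein-coding genes whose exons are at least as long in total as those of YTHDF1 (3206 bp), the shortest of the members, 37.1% had such a pair. Neither share takes RNA level into account, which the lists do not give, so the members were not compared with genes of like RNA level. On the canonical transcript alone, 7 of 9 members had a pair, since the MATR3 pair lay outside it.

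YTHDC2, an RNA helicase with a YTH domain that is known for its role in meiosis, was the member with no peak in either list. Its exons add up to 10.8 kb, longer than those of every other member but MATR3. Of the 2069 protein-coding genes with at least that exon length, 31.6% also lacked a peak in both lists.

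Of the member peaks, 19 of 27 in replicate 1 overlapped a peak of replicate 2 (70.4%, Wilson 95% interval 51.5 to 84.1), where 60.1% of all peaks did. In the other direction, 19 of 26 overlapped (73.1%, interval 53.9 to 86.3), where 61.2% of all peaks did. Both intervals contained the share over all peaks. The intervals here and later cover counting error only, and peaks of 1 gene share an mRNA, so they are narrower than independent genes would give.

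**Figure D1:**
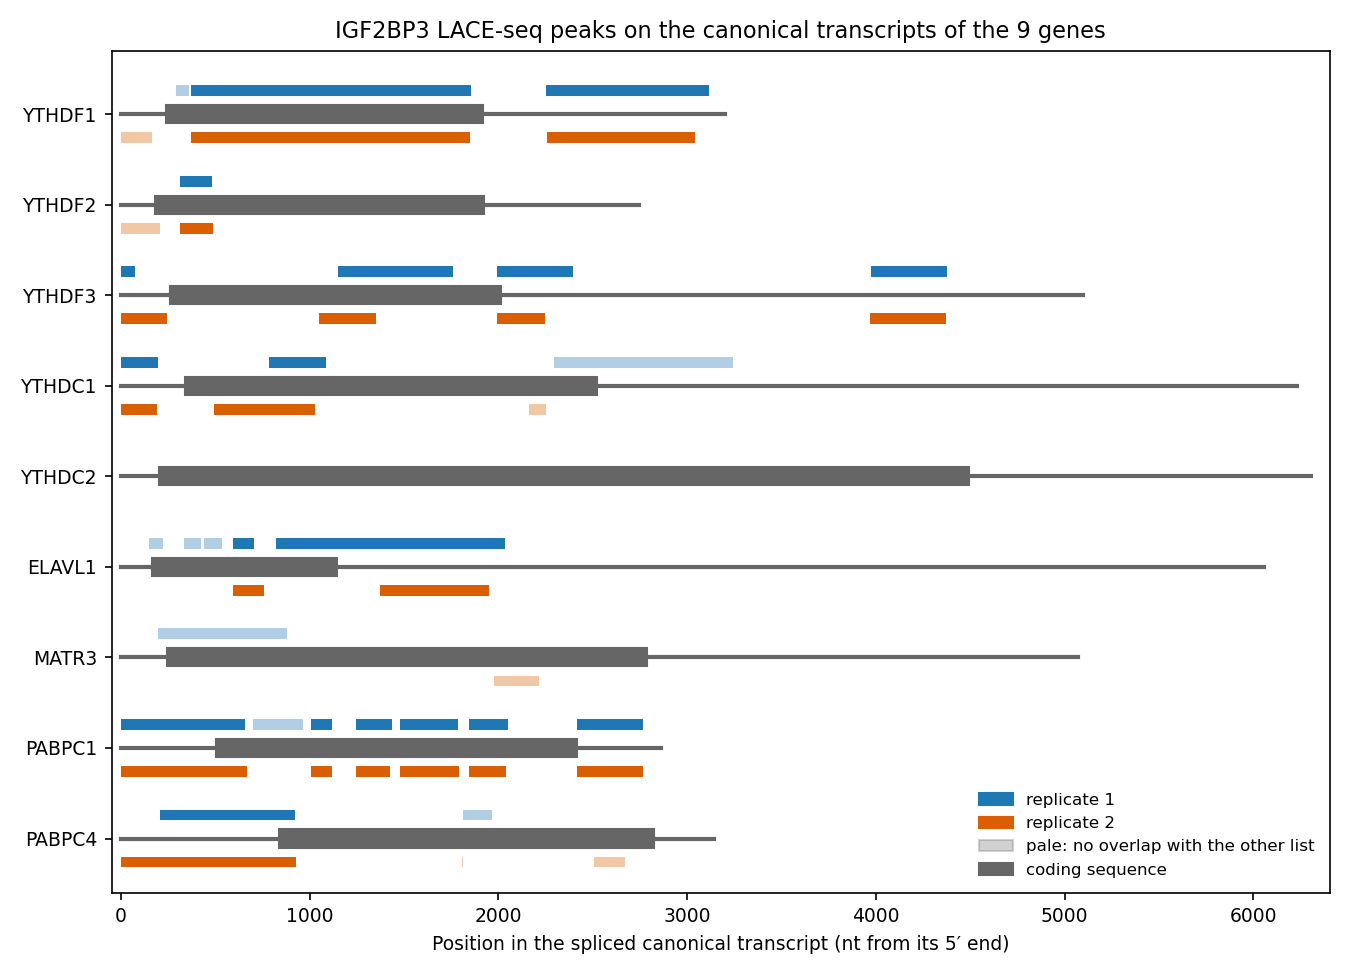
Peaks drawn on the spliced canonical transcript of each of the 9 genes, in nt from the 5′ end, with the coding sequence as a thick bar, replicate 1 above it in blue and replicate 2 beneath it in orange. Pale bars are peaks with no overlap in the other list; YTHDF1 and PABPC1 are covered over most of their length in both lists, and YTHDC2 carries none.

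The 3 cytoplasmic YTHDF readers are close paralogs, and each carried a shared coding peak in the long exon 4. YTHDF1, known for promoting translation of marked mRNAs, held 3 peaks in each list, 2 of them shared. Its 3′ UTR peak (chr20:63195511-63196375 in replicate 1) reached a fold enrichment over local background of 12.5 in replicate 1 and 12.9 in replicate 2 (mean 12.7 ± 0.296, SD, n = 2). At the summit, 97 reads were piled up in replicate 1 and 69 in replicate 2, and the summits sat 970 and 962 nt past the stop codon. The fold differed little between the lists although the read number was higher in replicate 1.

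The second shared YTHDF1 peak ran over 1612 bp in replicate 1 and 1611 bp in replicate 2, filling most of exon 4, which is 1521 nt long. Fold enrichment there was 6.22 and 8.98 with 53 and 74 reads. Together the YTHDF1 peaks covered 92.4% of the coding sequence in replicate 1 and 87.8% in replicate 2, and 70.6% of the canonical transcript was covered in both. With 0.936 peaks per kb of exon in each list, YTHDF1 was the densest of the 9 members when all annotated exons are counted. Of its peaks without a partner, replicate 1 had one at exon 3 (fold 8.12, 24 reads) and replicate 2 one at the start of the gene (fold 8.79, 22 reads), whose summit fell just upstream of the annotated gene.

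YTHDF2, the reader best known for bringing marked mRNAs to a deadenylase complex, had 1 shared peak, with few reads. That pair at chr1:28742280-28742572 (replicate 1) lay near the start of the coding sequence, at positions 243 and 201 of 1740 nt. Fold enrichment was 6.35 in replicate 1 and 7.89 in replicate 2, from 10 and 12 reads, and −log10 of the q-value was 6.64 and 9.59. The GGAC of the printed YTHDF2 site lay 27 and 69 nt from the summits. Replicate 2 also had a peak over the whole 181-nt 5′ UTR (fold 6.65, 8 reads) that replicate 1 lacked. A non-coding gene on the opposite strand overlaps that peak, and reads of the 2 genes cannot be told apart there. Neither list had a peak in the 3′ UTR of YTHDF2.

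YTHDF3, which is known to cooperate with both paralogs, held 4 peaks in each list, and all 4 were shared. The highest fold was at the first exon (chr8:63168312-63168696 in replicate 1), at 10.6 and 13.7 from 19 and 28 reads. The antisense gene YTHDF3-DT overlaps this peak, and the peaks carry no strand, so reads of the 2 genes cannot be told apart there. A peak just past the stop codon had its summits 108 and 129 nt from it and differed most between the lists of all 19 pairs, with fold 9.09 and 31 reads in replicate 1 against 5.75 and 10 reads in replicate 2.

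Further along the YTHDF3 3′ UTR, a peak 2125 and 2122 nt past the stop codon gave fold 6.20 and 7.97 from 21 and 14 reads. Its summits were 3 bp apart. The coding peak in exon 4 gave fold 6.23 and 6.58 from 14 and 11 reads, but its summits were 350 bp apart, the largest distance among the member pairs, at positions 1292 and 942 of 1758 nt of coding sequence. So the YTHDF3 coding peaks overlapped without sharing a summit, whereas the distal 3′ UTR peaks coincided.

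Among the 3 YTHDF genes, the shared coding summits of YTHDF2 lay nearer the start of the coding sequence than those of YTHDF1 and YTHDF3. The summits lay at 60.4% and 51.1% of its length in YTHDF1, at 13.97% and 11.6% in YTHDF2, and at 73.5% and 53.6% in YTHDF3. The ranges of YTHDF1 and YTHDF3 overlapped. Their summits were 156 and 350 bp apart between the lists, too far to decide whether YTHDF1 and YTHDF3 share a place. In the 3′ UTR, YTHDF1 and YTHDF3 had shared peaks and YTHDF2 had none.

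YTHDC1, the nuclear reader known for roles in splicing and export, carried the highest fold enrichment of all member peaks in both lists. Its shared peak at exons 3 and 4 (chr4:68337162-68337583 in replicate 1) had fold 16.05 in replicate 1 and 14.8 in replicate 2 (mean 15.4 ± 0.863, SD, n = 2). The summits lay 8 bp apart in exon 4, at coding positions 499 and 507 of 2184 nt, with 63 and 50 reads. These folds stood at the 98.7th and 96.9th percentile of all peaks in their lists. The 362 bp shared by the 2 peaks contained no GGAC and 9 DRACH matches, and the printed YTHDC1 match lay 25 and 17 nt from the summits.

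A weaker YTHDC1 pair covered 57.3% of the 5′ UTR in replicate 1 and 57.0% in replicate 2. Its fold was 7.17 and 9.33 from 11 and 13 reads. Replicate 1 had in addition a peak of 1120 bp across the stop codon in exon 17 (fold 9.69, 51 reads, summit 185 nt before the stop codon), which had no partner in replicate 2. Replicate 2 had a peak at exon 16 (fold 6.496, 16 reads) with no partner in replicate 1. The stop codon peak of replicate 1 stood at the 86.9th percentile of read number in its list and still did not recur.

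Among the cofactors, ELAVL1 encodes a protein that binds AU-rich elements and protects mRNAs from decay. Its mRNA carried a shared 3′ UTR peak (chr19:7962594-7963921 in replicate 1) with fold 7.62 and 7.002 from 60 and 34 reads, at 626 and 520 nt past the stop codon. A second shared peak at exon 5 gave fold 6.12 and 7.34 from 34 and 32 reads. The printed ELAVL1 matches lay 7 and 113 nt from the 3′ UTR summits, and 24 and 16 nt from the exon 5 summits.

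Replicate 1 had 3 further ELAVL1 peaks over exons 2, 3 and 4, with fold 7.30, 9.58 and 6.82 from 17, 33 and 16 reads and summits in the flanking introns. None of these appeared in replicate 2. The 3′ UTR peak of replicate 1 also reached back into the coding sequence, from transcript position 820 with the coding end at 1144, while its partner in replicate 2 began at 1371. With these differences, 68.8% of the ELAVL1 coding sequence was covered in replicate 1 and 16.8% in replicate 2, the widest gap between the lists among the members' coding sequences. Peak density was 0.503 ± 0.305 per kb of exon (SD, n = 2).

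MATR3 encodes a nuclear matrix protein that binds RNA. Its shared peak (chr5:139278556-139278857 in replicate 1) had fold 9.86 and 11.8 from 21 and 39 reads, but lay over the small nucleolar RNA gene SNORA74A inside the non-coding gene SNHG4, upstream of the canonical MATR3 transcript, with SIL1 on the opposite strand. A peak of replicate 2 over SNORA74D in the same non-coding gene gave fold 9.58 from 30 reads. Reads of MATR3 and of these overlapping genes cannot be told apart in the peak lists.

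On the canonical MATR3 transcript, each list had 1 peak and they did not overlap. Replicate 1 had it in exon 2 (fold 6.81, 10 reads) and replicate 2 over exons 11 and 12 (fold 8.79, 14 reads). No base of the canonical MATR3 transcript was covered in both lists.

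PABPC1 encodes the main cytoplasmic poly(A)-binding protein, which coats mRNA tails, promotes translation and is known to restrain its own synthesis through an A-rich tract in its 5′ UTR. PABPC1 held 7 peaks in replicate 1 and 6 in replicate 2, the most of any member, and 6 were shared. The peak over its first exon (chr8:100721433-100722228 in replicate 1) had fold 12.1 in replicate 1 and 14.3 in replicate 2 (mean 13.2 ± 1.60, SD, n = 2). Its summits held 242 and 259 reads, and −log10 q reached 165 and 196. Both the read number and the q-value were the highest of the member peaks in each list, at or above the 99.9th percentile of all peaks.

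That peak covered the 505-nt 5′ UTR of PABPC1 from end to end in both lists. The summits stood at transcript positions 397 and 404, 7 bp apart. The 50-nt window richest in A, at 68%, ran from position 73 to 122 of the 5′ UTR, so the peaks covered that tract but their summits lay downstream of it. The tract itself was not resolved as a separate peak.

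The other shared PABPC1 peaks had lower fold at high read numbers. Those over exons 8 and 9 gave fold 7.70 and 7.87 from 241 and 190 reads, and those over exons 10 and 11 gave 6.86 and 7.33 from 204 and 173 reads. Peaks over exons 6 and 7 gave 5.39 and 6.14 from 136 and 108 reads. Those over exon 4 gave 5.65 and 5.75 from 107 and 69 reads. The summits over exons 6 and 7 and over exon 4 in both lists lay outside the canonical exons, in non-coding exons of other annotated transcripts. So did the summit over exons 8 and 9 in replicate 2. These peaks thus had many reads at the summit in both lists without reaching the fold of the 5′ UTR.

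The shared peak at exon 15, in the 3′ UTR and over MIR7705, had the lowest fold of all member peaks in both lists, 3.69 and 3.90, from 76 and 62 reads. Replicate 1 also had a peak over exons 2 and 3 (fold 5.08, 121 reads) with no partner. Peaks of at least 100 reads were 2.08% of all peaks in replicate 1 and 2.19% in replicate 2, and 95% and 94.3% of those recurred. All 6 member peaks of that height in replicate 1 and all 4 in replicate 2 were on PABPC1.

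The local background of PABPC1 peaks was also high, at 18.1 to 30.4 reads in replicate 1 and 11.2 to 23.3 in replicate 2, against medians of 2.05 and 1.79 over all peaks. Without a control library, RNA abundance and binding per RNA molecule cannot be told apart from read number. PABPC1 has many processed copies in the genome. Of the 13 annotated PABPC1P pseudogenes, 5 had a peak in each list, led by PABPC1P1 (93 and 47 reads) and PABPC1P3 (82 and 60 reads), and up to 25.0% of the 31-nt words in a PABPC1 peak occurred elsewhere in the genome. How the aligner shared such reads was not tested, so the PABPC1 read numbers are uncertain to that extent. The same limit holds for some replicate 1 peaks of other members. The share of repeated words was 34.9% in the ELAVL1 peak over exon 2, 23.2% in the PABPC4 peak over exon 8 and 16.3% in the MATR3 peak in exon 2.

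PABPC4, a paralog of PABPC1 with the same kind of RNA-binding domains, shared 1 peak between the lists. It lay over the first exon (chr1:39575870-39576583 in replicate 1), with fold 5.94 and 7.83 from 22 and 31 reads. The peak covered 75.3% of the 839-nt 5′ UTR in replicate 1 and 100% in replicate 2, and the GGAC of the printed PABPC4 site lay 62 and 106 nt from the summits. Both cytoplasmic poly(A)-binding protein mRNAs therefore had a shared peak over the 5′ UTR, with 242 and 259 reads on PABPC1 against 22 and 31 on PABPC4.

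The unshared PABPC4 peaks were at exon 8 in replicate 1 (fold 7.23, 56 reads), and at exons 13 and 14 (fold 5.75, 24 reads) and next to exon 7 over the small nucleolar RNA gene SNORA55 (fold 7.47, 39 reads) in replicate 2. The antisense gene PABPC4-AS1 overlaps the exon 8 and SNORA55 peaks. The 3′ UTR of PABPC4 had no peak in either list.

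Per kb of exon, the order of the members ran from YTHDF1 at 0.936 peaks, PABPC1 at 0.681 ± 0.0741 and YTHDF3 at 0.649 in each list through ELAVL1 at 0.503 ± 0.305, YTHDC1 at 0.427 in each list and YTHDF2 at 0.402 ± 0.190 to PABPC4 at 0.243 ± 0.0688, MATR3 at 0.188 ± 0.0533 and YTHDC2 at 0 (SD, n = 2). From PABPC1 down to MATR3, each pair of neighbours in this order differed by less than the larger of their SDs, whereas members further apart could differ by more: PABPC1 and YTHDF3 were above PABPC4 and MATR3 in both lists. Per kb of canonical transcript, PABPC1 came first at 2.27 ± 0.247 and YTHDF1 stood at 0.938 in each list. Across all members the density was 0.373 ± 0.00996, and the median over protein-coding genes with an exonic peak was 0.357 in replicate 1 and 0.352 in replicate 2.

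Over the 19 shared pairs, fold enrichment was higher in replicate 2 in 16, while 57.6% of all 11424 pairs within 1 protein-coding gene were. The median log2 ratio of replicate 2 over replicate 1 was 0.19 for the members and 0.07 for all pairs. All 4 member pairs in a 5′ UTR (YTHDF3, YTHDC1, PABPC1 and PABPC4) were higher in replicate 2, with a median log2 ratio of 0.37, as were 78.6% of all 906 such pairs, with a median of 0.35. The tilt of the 5′ UTR peaks towards replicate 2 was thus a feature of the whole lists.

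Fold enrichment ranked the 19 pairs with a Spearman rho of 0.725 between the lists and read number with a rho of 0.897, given as descriptions since pairs of 1 gene share an mRNA. Summits of the member pairs lay a median of 40 bp apart, equal to the median over all pairs, and 13 of 19 lay within 50 bp, where 55.1% of all pairs did. GC content moved with the replicate ratio, with a rho of 0.568 over the 19 pairs and 0.224 over the 11424. Windows of 101 nt at coding summits had a median GC content of 53.5% in replicate 1 and 58.4% in replicate 2 over all peaks, and those at 5′ UTR summits 66.3% and 70.3%. The part of GC content in the differences between the lists was not tested.

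**Figure D2:**
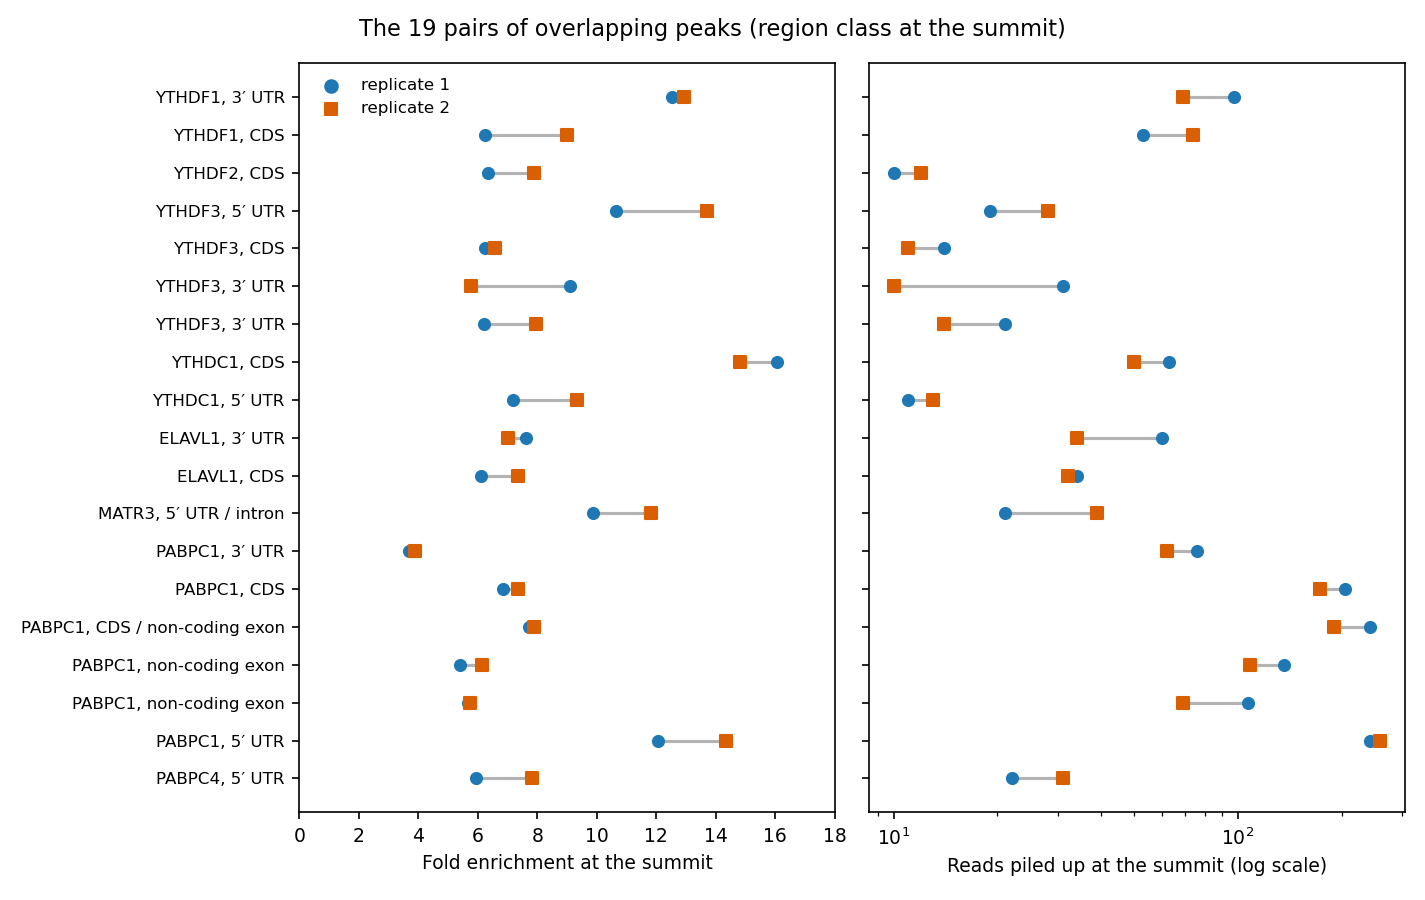
Fold enrichment (left) and reads at the summit on a log scale (right) for the 19 pairs of overlapping peaks, with replicate 1 as blue circles and replicate 2 as orange squares joined by a line, labelled by gene and region class at the summit. YTHDC1 in the coding sequence has the highest fold, PABPC1 the most reads, and fold is higher in replicate 2 in 16 of 19 pairs.

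The first exon of the canonical transcript carried a peak in 4 of the 8 members with peaks in replicate 1 (YTHDF3, YTHDC1, PABPC1 and PABPC4), where 25.9% of protein-coding genes with a peak had one. In replicate 2 it did so in 6 of 8, with YTHDF1 and YTHDF2 added, where the share was 45.8%. The last exon carried a peak in 5 of 8 members in replicate 1 (YTHDF1, YTHDF3, YTHDC1, ELAVL1 and PABPC1) and 4 of 8 in replicate 2 (without YTHDC1), where 66.8% and 58.7% of genes did.

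By region at the summit, 11 of 27 member peaks in replicate 1 (40.7%, Wilson 95% interval 24.5 to 59.3) and 8 of 26 in replicate 2 (30.8%, 16.5 to 49.99) were in CDS, against 33.0% and 34.1% of peaks in all protein-coding genes. In the 3′ UTR, the shares were 18.5% and 19.2%, against 25.2% and 20.6%. Summits in the 5′ UTR made up 18.5% (8.18 to 36.7) and 23.1% (11.03 to 42.1), against 7.55% and 13.7%. Intronic summits made up 14.8% and 11.5%, against 30.3% and 27.7%, and each of those 4 and 3 member peaks also reached an exon. These classes were taken over all transcripts. On the canonical transcript alone, further summits of YTHDF3, MATR3 and PABPC1 lay outside the exons in both lists. Those of YTHDF3 and MATR3 lay upstream of that transcript, and those of PABPC1 lay in its introns. The share of member summits outside exons thus depends on that choice.

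The 5′ UTR share of the members was above that of all peaks in both lists, with the replicate 1 interval starting above the value for all peaks and the replicate 2 interval including it. By the middle of the peak in place of the summit, the replicate 1 share was 14.8% (5.92 to 32.5) against 7.34%, and the interval included the value for all peaks. In each list, 1 of these 5′ UTR summits was a MATR3 peak over a small nucleolar RNA gene. By the canonical transcript alone, that MATR3 summit and the YTHDF3 summit of each list fell outside the 5′ UTR, so the share would be lower. All other region intervals included the value for all peaks. Of the exonic summits, 3 of 23 in replicate 1 and 2 of 22 in replicate 2 had a stop codon of their gene no more than 200 nt away (13.04% and 9.09%), against 20.4% and 18.6%. They were the YTHDF3 peak just past the stop codon and the PABPC1 peak over exons 8 and 9, near the stop codon of another annotated transcript, in both lists, and the YTHDC1 peak of exon 17 in replicate 1.

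GGAC occurred within 50 nt of the summit, on the strand of the gene, in 9 of 27 member peaks in replicate 1 (33.3%, Wilson 95% interval 18.6 to 52.2) and in 3 of 26 in replicate 2 (11.5%, 4.003 to 28.98). Over peaks in all protein-coding genes the shares were 28.9% and 31.9%. The longer TGGAC, whose matches are a subset of the GGAC matches, was found in 5 of 27 windows in replicate 1 and 0 of 26 in replicate 2. The Wilson 95% interval of the replicate 2 share reaches 12.9%, and all peaks had 10.0% and 10.2%. DRACH, which overlaps the GGAC matches that are followed by A, C or T, was found in 88.9% and 80.8% of member windows and in 81.1% and 77.02% of all windows.

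In replicate 2 the GGAC share of the members thus lay under that of all peaks, with the interval ending before it. Over whole peaks in place of windows, 74.1% and 65.4% of member peaks held a GGAC, against 70.0% and 74.98% of all peaks. Searched over the whole shared stretch of each pair, GGAC was most frequent in the YTHDF1 coding pair, with 11 matches in 1605 bp, and it was absent from 7 of the 19 pairs, among them the coding pairs of YTHDC1, ELAVL1 and PABPC1.

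Member peaks had more reads than the lists as a whole. The median was 34 reads in replicate 1 and 31.5 in replicate 2, against 22 in each full list, and 48.1% and 42.3% of member peaks were in the top quartile of read number, against 25.4% and 25.6%. The median fold was 7.17 and 7.85, against 6.89 and 7.13, and 29.6% and 26.9% were in the top quartile of fold. The height in reads rested on PABPC1. Without it, the median was 23 reads and 6 of 20 peaks (30%) were in the top quartile in replicate 1, and 26 reads and 5 of 20 (25%) in replicate 2. The 5′ UTR share without PABPC1 was 20% and 25%, close to that with it.

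**Figure D3:**
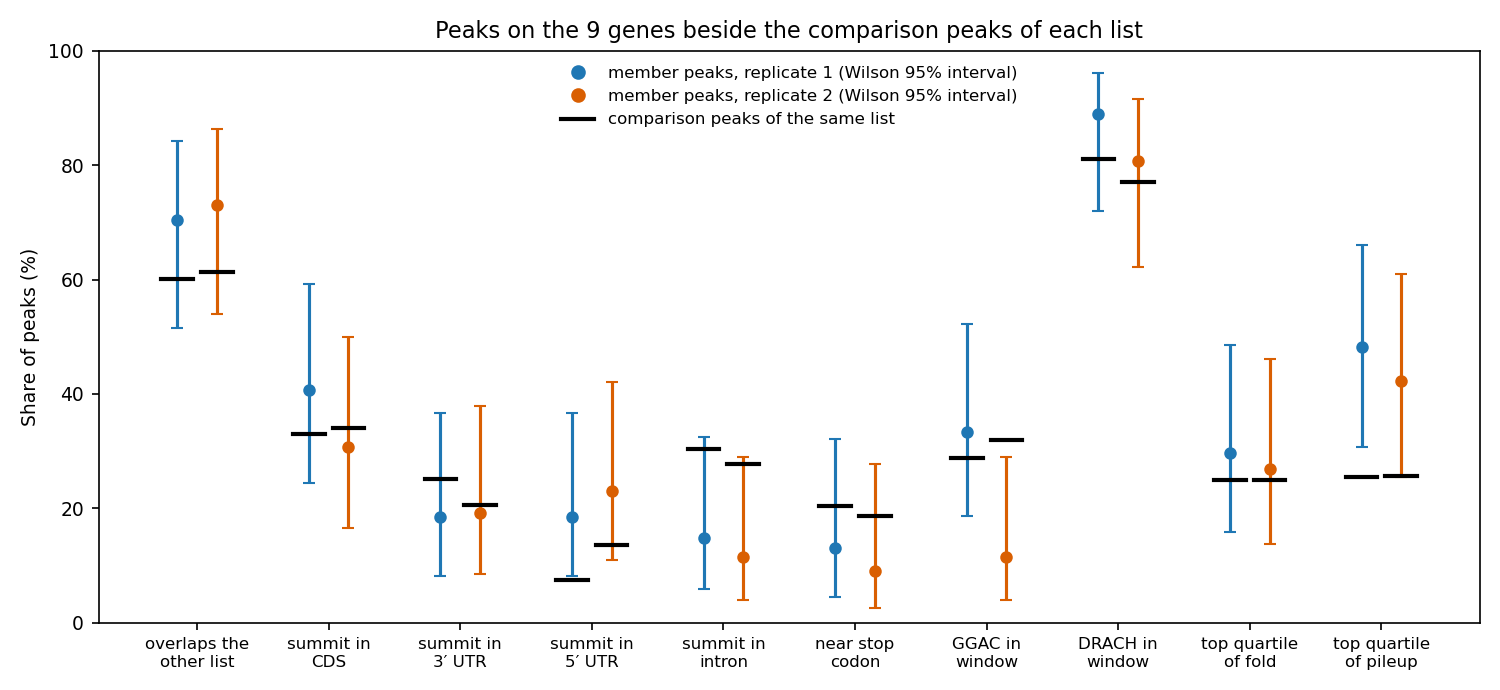
Shares of the member peaks in percent with Wilson 95% intervals for replicate 1 (27 peaks, blue) and replicate 2 (26 peaks, orange), beside the share of the comparison peaks of the same list as black bars. The comparison is all peaks for recurrence and the quartiles, and peaks or exonic summits in protein-coding genes for the other shares. The members sit above the black bar in both lists for recurrence, the 5′ UTR, DRACH and the quartiles of fold and read number. The GGAC point of replicate 2 sits under its bar.

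Genes of the same pathways gave a range of outcomes. Over all protein-coding genes, 30.5% had a pair of overlapping peaks, as did 37.1% of those with at least the exon length of YTHDF1. Both shares count genes whatever their RNA level, so preference in binding was not tested. Of 11 other proteins described as m6A readers, 8 had a pair of overlapping peaks, including IGF2BP3 itself (fold up to 7.66 and 6.35), while IGF2BP1 had no peak. LRPPRC also had a pair and reached the highest fold of those 11 (up to 11.4 and 15.2). Of 21 decay and translation partners, 13 had a pair, among them the deadenylase subunit CNOT7 (fold up to 14.8 and 16.7) and the antiproliferative factor TOB1, whose peaks held up to 111 and 138 reads. Among those without a pair, the reader FMR1 and the partner CNOT6L had peaks in replicate 1 only. Of 8 paralogs of the cofactors, 3 had a pair (PABPC1L, PABPC3 and PABPN1), near the shares over all genes. How the aligner shared reads between PABPC1 and its paralogs was not tested. None of ELAVL2, ELAVL3 and ELAVL4, which are known mainly from neurons, had a peak.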

How the data were processed

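The members and gene lists were chosen with earlier results of these data known. Peak lists in the 10-column narrowPeak layout were used, 1 for each of 2 replicates. Per the labels, fastp, HISAT2, MACS2 and hg38 were used, while the study's methods name other tools for LACE-seq. Versions are not given in the sources used here. The authors deposited, for each peak, a fold enrichment (a ratio over local background), −log10 p-values and q-values, an integer score that was not used, and a summit. Library depth is not in the lists. Reads at each summit and the local background were recovered from the deposited fold and p-value for all 21142 and 20799 peaks (98.8% exact on 500 simulated peaks).

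Peaks were set on GENCODE release 44, with summit classes taken over all transcripts in the order CDS, 3′ UTR, 5′ UTR, other exon and intron. Peaks carry no strand and took that of their gene. Peaks sharing at least 1 bp between lists were called shared. Shares have Wilson 95% intervals. With 1 group there was no comparison of conditions, and no p-value was computed. All 9 members were described by rule. Python 3.11.15, numpy 2.4.6, scipy 1.17.1 and pysam 0.24.0 were used. Alternatives were other overlaps, thresholds, windows, classes and transcripts, and leaving out each replicate.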

Additional observations from a re-analysis of the deposited data

How the results depend on the processing

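Of 51 alternative values over 8 results, 37 stayed within the spread between replicates (counts within 1.5 times) and 14 moved. The share of member peaks recurring, 71.7% as the mean of both lists, was 64.2% with a reciprocal overlap of 50%, 49.1% with summits within 50 bp, 69.8% at −log10 q of at least 10 and 65% with PABPC1 left out. Members with a pair fell from 8 to 7 with summits within 50 bp (without MATR3) and at −log10 q of at least 10 (without YTHDF2). Summits in the 3′ UTR went from 18.9% to 20.7% by peak middle and 26.3% among recurring peaks. The stop codon share went from 11.1% to 4.45% within 100 nt and 6.62% on canonical transcripts. The GGAC share went from 22.4% to 41.5% with 100 nt to each side and 69.7% over whole peaks. The top-quartile share went from 28.3% by fold to 49.0% by −log10 q, 45.2% by read number and 30.2% among protein-coding genes. Density went from 0.373 to 0.614 peaks per kb on canonical transcripts. The cause of these shifts was not tested. Leaving out PABPC1, small RNA genes or repeated 31-nt words, comparing with long genes, and requiring the pair on the canonical transcript were chosen after seeing the data. No paired analysis was possible because both replicates belong to a single group. With 27 and 26 peaks, intervals on a share are wide, and library depth is unknown.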
